A study of Mus musculus with 8 samples.

Results

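The Hox genes, which give cells along the body axis their positional identity, were read from the large intestine of 8 mice. All genes of the deposited table whose symbol is Hoxa, Hoxb, Hoxc or Hoxd followed by a paralog number were taken, 36 of 17041. They fall into the 4 Hox clusters, with 11 genes of cluster A (chromosome 6), 10 of cluster B (chromosome 11), 7 of cluster C (chromosome 15) and 8 of cluster D (chromosome 2). Every mouse was an ApoE knockout, a strain prone to atherosclerosis, raised germ-free, given its bacteria by gavage at 8 weeks and dissected at 26 weeks. The core group (3 mice) carried a defined community without butyrate producers, and the other group (5 mice) carried that community plus Roseburia intestinalis, a butyrate producer. Messenger RNA of 1 piece of proximal large intestine per mouse was sequenced. Where along the proximal large intestine each piece was cut, and each animal's diet, sex and cage, are details that the sources used here do not state. Mice of a group may have shared an isolator.

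Hox genes encode homeodomain transcription factors, and their order along a cluster follows the order in which they are expressed along the body axis. Genes with low paralog numbers act toward the head and genes with high numbers toward the tail, and the paralog 13 genes mark the hindgut and its end. In the adult intestine both the epithelium and the muscle and connective tissue of the wall keep Hox patterns laid down in the embryo. Hox proteins bind DNA together with TALE cofactors such as Pbx and Meis proteins, retinoic acid activates the genes at the low-number end of a cluster, and Polycomb proteins keep silent those that a region does not use.

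Values are the authors' normalized expression signal, which is not per length, given for core replicates 1 to 3 and then for core plus R. intestinalis replicates 1 to 5. Estimated depth was 4607298 to 15351072 reads per library, so that low values rest on few reads. Apoe itself read 11.1 to 27.1 in all 8 mice. All 8 colon epithelium markers were above 0 in every library, with Epcam at 11501 to 14865. Of 9 small intestine markers, Lct and Apoa4 read at most 6.35 and 7.08 in any library, while Fabp2 read 1665 to 6699.6, Sis 11.4 to 1370.1 and Slc10a2 13.9 to 949. RNA of all cells in a piece was pooled, so fewer cells of a type and less RNA per cell cannot be told apart.

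Clusters A and B carried most Hox signal, cluster D less and cluster C almost none. A mean value of at least 10 was reached by 21 Hox genes (9 of cluster A, 9 of B, 3 of D), and these entered the tests. The other 15 had means of 0.135 to 8.26 and no value above 22.6. No cluster C gene passed: Hoxc6, its highest, read 1.59, 4.26 and 4.59 in the core mice and 2.00, 3.23, 1.37, 7.08 and 0 with R. intestinalis. Its groups overlapped, and 7.08 was the highest value of any cluster C gene. Hoxc12, Hoxc13 and Hoxd1 were not analysed here. Hoxb1, a hindbrain gene, was listed at 0 in 7 libraries, and 11 of the 36 genes were listed at 0 in at least 1.

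Expressed per kilobase of exon, the mean signal was highest for Hoxb9 (159), Hoxa10 (133), Hoxb7 (109) and Hoxb13 (109), followed by Hoxa9 (54.7). Dividing by the longest transcript instead put Hoxa10 first, at 163. Per kilobase, cluster A held 65.8%, 52.7% and 36.0% of all Hox signal in the core mice and 56.3%, 20.1%, 38.7%, 25.2% and 46.1% in the mice with R. intestinalis. Cluster B held 32.3%, 42.1% and 58.4%, and then 42.4%, 70.0%, 57.3%, 67.1% and 50.5%. Cluster D held 1.4%, 4.3% and 5.0%, and then 0.8%, 9.3%, 3.6%, 7.0% and 3.2%. The share of cluster A was lowest in R. intestinalis replicates 2 and 4, the same mice in which the share of cluster B was highest, and both shares overlapped between the groups. The share of the paralog 13 genes ran from 0.5% in R. intestinalis replicate 2 to 39.3% in replicate 5, and was 14.1%, 32.4% and 2.7% in the core mice. Exons of 14 of the 36 genes overlap those of another gene, 9 of them on the opposite strand (such as Hoxb3 with Hoxb3os). Libraries were stranded but no source used here states the strand setting of the counting, so reads of such pairs may be mixed.

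**Figure D1:**
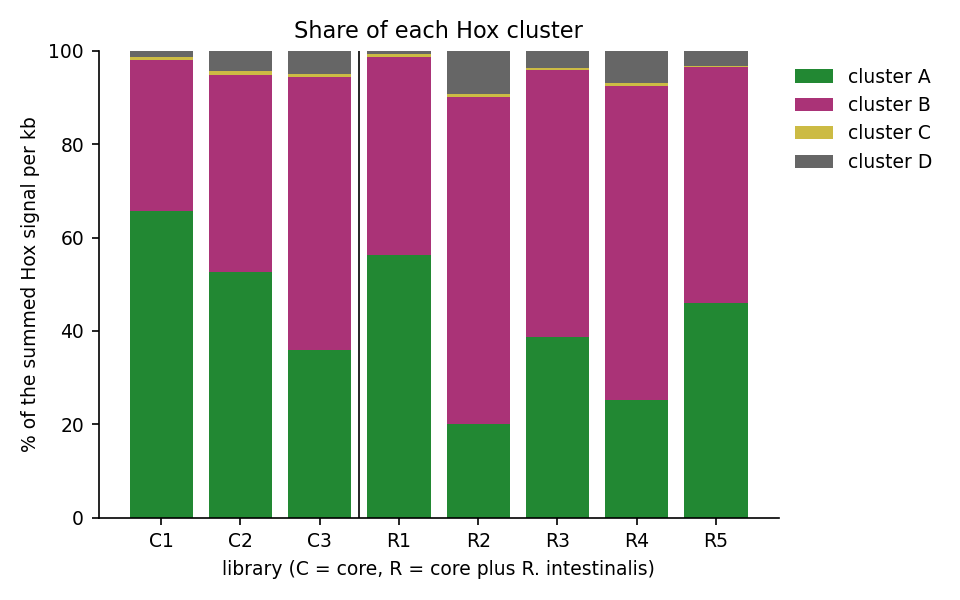
Share of all Hox signal per kilobase (percent, vertical axis) held by each cluster in each of the 8 libraries (horizontal axis). Cluster A falls from 65.8% in core replicate 1 to 20.1% in R. intestinalis replicate 2, where cluster B reaches 70.0%.

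Several Hox genes spanned wide ranges among mice of the same group. Hoxb13, the tail-end gene of cluster B, was at 141, 439 and 25.3 in the core mice and at 247, 2.16, 394, 8.26 and 663 with R. intestinalis. It was nearly silent in R. intestinalis replicates 2 and 4 (about 2 and 7 estimated reads) and low in core replicate 3, and the groups overlapped. The highest value was 307 times the lowest. The standard deviation (SD) of its log2(value + 1) over the 8 libraries was 2.88, and 0.0768% of the 13020 genes tested had a larger one.

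Hoxa13, its paralog in cluster A, read 44.4, 109 and 28.7 in the core mice and 84.8, 6.47, 79.5, 24.8 and 174 with R. intestinalis. Its lowest mice were again R. intestinalis replicates 2 and 4 and core replicate 3, and the groups overlapped. Hoxd13, the third paralog, read 7.94, 47.9 and 4.59 in the core mice and 0.67, 2.16, 21.5, 1.18 and 46.0 with R. intestinalis. It was high in core replicate 2 and R. intestinalis replicates 3 and 5, and low in R. intestinalis replicate 1, where both other paralogs were not.

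The middle of cluster B ran the other way. Hoxb7, a trunk gene, read 26.98, 5.32 and 285 in the core mice and 42.1, 309, 124, 313 and 19.2 with R. intestinalis. Hoxb6 read 15.9, 9.58 and 80.4, and then 27.4, 143, 81.8, 173 and 11.5. Hoxb8 read 6.35, 3.19 and 40.2, and then 18.7, 67.9, 38.8, 57.8 and 6.39. All 3 were high in R. intestinalis replicates 2 and 4 and low in core replicates 1 and 2 and R. intestinalis replicate 5, and their groups overlapped.

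Hoxb5 had the same high mice, with 4.76, 14.9 and 40.2 in core and 16.7, 74.4, 34.3, 74.4 and 11.5 with R. intestinalis. Hoxb3 read 15.9, 28.7 and 119, and then 69.4, 124, 81.8, 240.1 and 29.4. Hoxd10, a cluster D gene of the lower trunk, read 4.76, 7.45 and 41.3 in core and 0, 97.1, 16.9, 57.8 and 3.83 with R. intestinalis. In all 3, R. intestinalis replicates 2 and 4 and core replicate 3 were the highest mice.

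The remaining tested genes spread less. Hoxa5 read 50.8, 50.03 and 34.4 in the core mice and 50.7, 21.6, 53.9, 40.2 and 74.1 with R. intestinalis. Hoxb4 read 13.1, 12.2 and 41.5, and then 20, 59.0, 25.0, 49.0 and 8.1. Both had overlapping groups, with R. intestinalis replicate 2 lowest for Hoxa5 and highest for Hoxb4. In cluster A, Hoxa3 spanned 38.8 to 152 over the 8 mice, Hoxa7 26.96 to 139, Hoxa9 90.6 to 310.5, Hoxa2 16.2 to 58.8, Hoxa11 43.5 to 112 and Hoxa4 6.39 to 18.4, and in cluster D, Hoxd4 spanned 3.17 to 32.4. Hoxa2, Hoxa3, Hoxa5, Hoxa7 and Hoxa9 were all lowest in R. intestinalis replicate 2.

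The low cluster D genes Hoxd8 and Hoxd9, which were not tested, were also highest in R. intestinalis replicates 2 and 4. Hoxd9 read 1.59, 2.13 and 9.18 in core and 2.67, 22.6, 6.85, 17.7 and 2.56 with R. intestinalis. The SD of log2 values was above 1 for 9 of the 21 tested Hox genes (Hoxa13, Hoxb3, Hoxb5 to Hoxb8, Hoxb13, Hoxd10 and Hoxd13), against 2.08% of all genes tested. The median SD was 0.96 over the tested Hox genes and 0.32 over all genes. Hoxa10 and Hoxb9, the genes with the highest mean normalized value in their clusters, varied less, with highest-to-lowest ratios of 2.12 and 2.57.

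**Figure D2:**
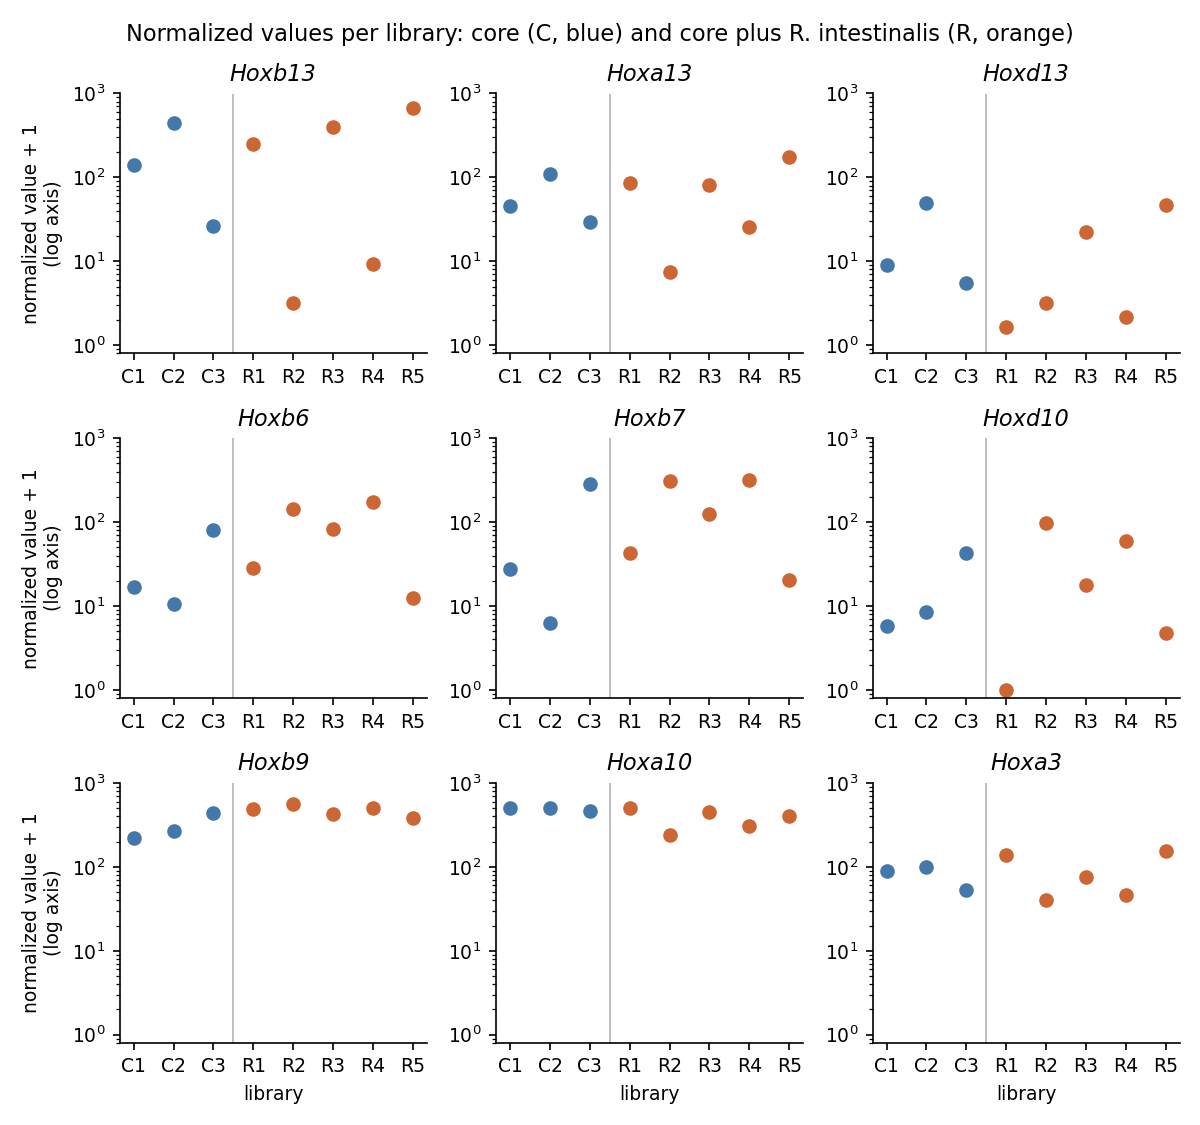
Normalized value plus 1 (log axis) of Hox genes in each library (points), by group. Hoxb13 spans 2.16 to 663 in the mice with R. intestinalis, while Hoxb7 is at 309 and 313 in the 2 mice where Hoxb13 is lowest.

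**Figure D3:**
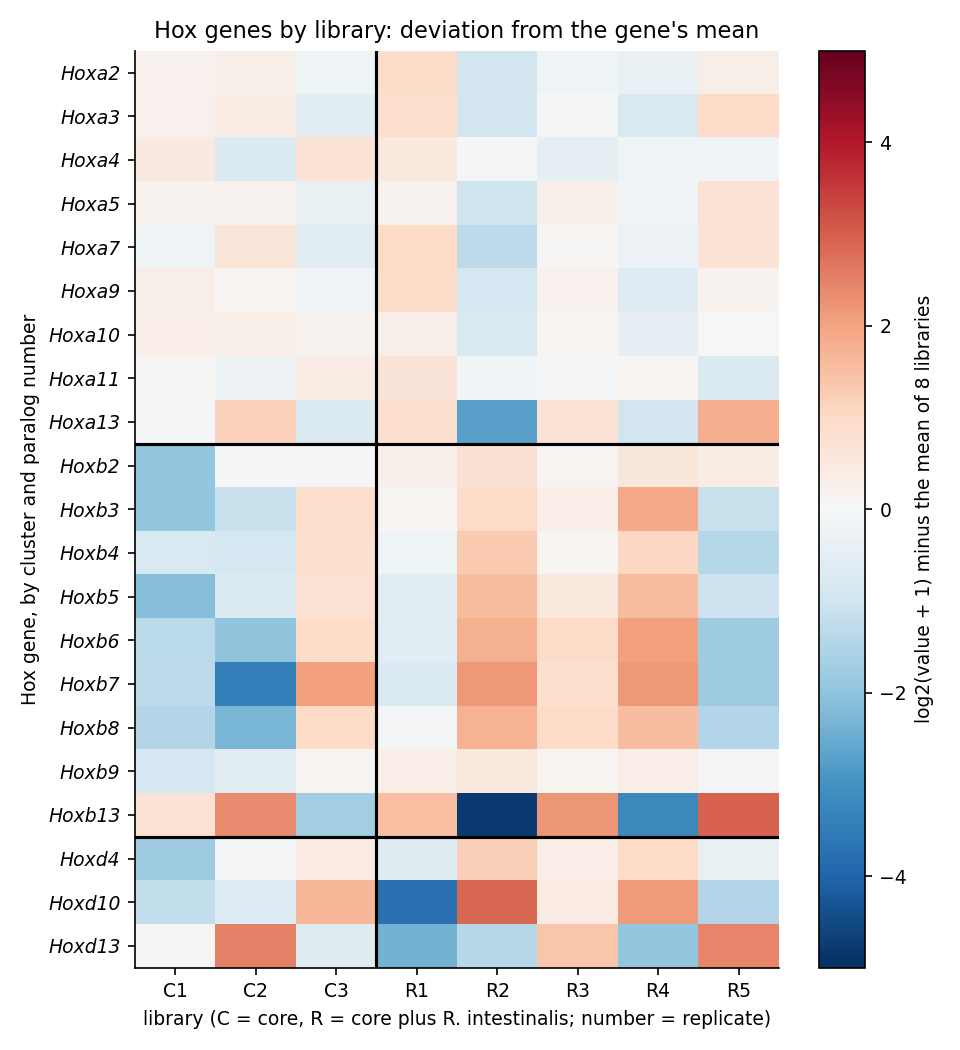
Deviation of log2(value + 1) from each gene's mean over the 8 libraries (colour, log2 units) for the 21 tested Hox genes in each library. In R. intestinalis replicates 2 and 4 and core replicate 3, lowest in Hoxb13, most of cluster A is below its mean, and Hoxb3 to Hoxb8, Hoxd4 and Hoxd10 are above theirs.

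Each other tested Hox gene was correlated with Hoxb13 over the 8 libraries on the log2(value + 1) scale, by a two-sided exact permutation test over 40320 pairings. With p-values adjusted (Benjamini-Hochberg) over the 13019 other genes tested, 0 of 20 Hox genes passed, nor did any gene (0.0%), and the smallest adjusted p was 0.0923. The smallest p that this exact permutation test can give is 2.48e-05, so no gene could pass alone after the adjustment. A lack of passing genes therefore does not show a lack of relation. The r was above 0 for 8 of 20, against 50.8% of all genes. Unadjusted, 13 of 20 had p under 0.05, against 13.9%. The 7 positive ones were all of cluster A, against 7.04% of all genes, and the 6 negative ones were 5 of cluster B and 1 of cluster D, against 6.91%. Libraries share their normalization across genes, and genes are not independent replicates.

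Hoxa13 followed Hoxb13 most closely, with r = 0.96 (exact permutation p = 7.44e-05, adjusted p = 0.0923) and rho = 0.98 (exact permutation p = 0.000397). Without R. intestinalis replicates 2 and 4, the 2 libraries farthest from the median of Hoxb13, its r was 0.94 (exact permutation p = 0.00417, n = 6). Hoxa5, a gene of lung and foregut patterning, had r = 0.91 (exact permutation p = 0.00124) and rho = 0.81 (exact permutation p = 0.0218), and r = 0.89 without those libraries (exact permutation p = 0.0222). These were the only Hox genes with an unadjusted p under 0.05 in the 6 libraries.

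Hoxa3 (r = 0.90, rho = 0.88) and Hoxa7 (r = 0.86, rho = 0.83) had exact permutation p of 0.0027 and 0.0057 for r, and r of 0.77 and 0.74 in the 6 libraries. Hoxa9 (0.83), Hoxa10 (0.79) and Hoxa2 (0.77) fell to 0.36, -0.28 and 0.37 there, so these values of r rest on R. intestinalis replicates 2 and 4. By rank, Hoxa9 (rho = 0.57) and Hoxa10 (rho = 0.36) had exact permutation p of 0.151 and 0.389, and Hoxa2 (rho = 0.81) had 0.0218. Hoxa11 and Hoxa4 stood apart in cluster A, with r of -0.28 and -0.22. Hoxd13 had r = 0.69 (exact permutation p = 0.0626) and rho = 0.71 (exact permutation p = 0.0576).

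Hoxb4 had the strongest negative relation, with r = -0.89 (exact permutation p = 0.0031), rho = -0.90 (exact permutation p = 0.0046) and r = -0.77 without the 2 libraries (exact permutation p = 0.0736). Hoxb6 (-0.81), Hoxb7 (-0.80), Hoxd10 (-0.79), Hoxb8 (-0.76) and Hoxb5 (-0.75) followed, with r of -0.56, -0.68, -0.50, -0.52 and -0.33 in the 6 libraries, and none of these passed there. Hoxb3 (r = -0.71), Hoxd4 (-0.64), Hoxb9 (-0.54) and Hoxb2 (-0.31) had unadjusted p of 0.0518, 0.0874, 0.156 and 0.507 by the exact permutation test. The 3 libraries lowest in Hoxb13 were the 3 highest of 7 Hox genes (Hoxb3, Hoxb4, Hoxb5, Hoxb7, Hoxb8, Hoxd4 and Hoxd10), against 6.18% of all genes. They were the 3 lowest of 6 others, all of cluster A (Hoxa2, Hoxa3, Hoxa5, Hoxa7, Hoxa9 and Hoxa13), against 5.6%.

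**Figure D4:**
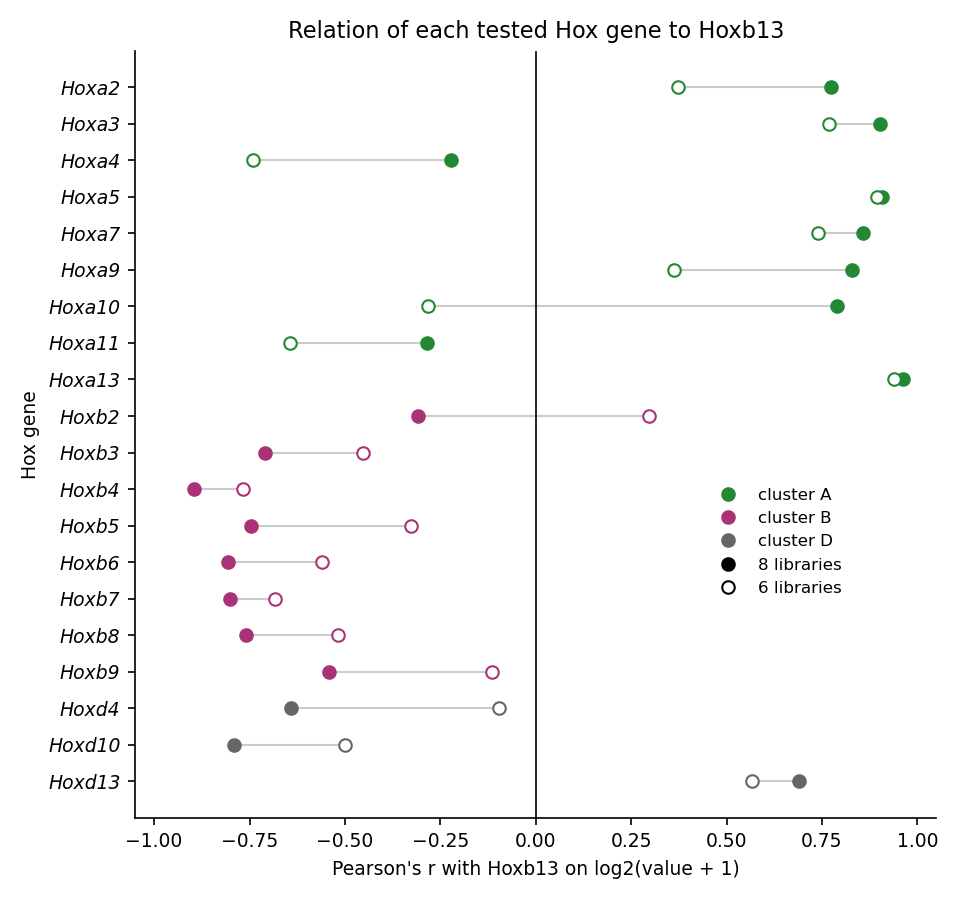
Pearson's r with Hoxb13 (horizontal axis) for the 20 other tested Hox genes, over 8 libraries (filled) and over 6 libraries without the 2 farthest from the Hoxb13 median (open). Most of cluster A lies right of 0 and cluster B left of it, and Hoxa10 and Hoxb2 change sign without the 2 libraries.

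Markers of other regions and cells were set beside this order. Of 9 small intestine markers, 7 were tested and 2 were negatively related to Hoxb13 (unadjusted), against 6.91% of all genes. They were the ileal bile acid transporter Slc10a2 (r = -0.75) and the brush border sucrase Sis (r = -0.77). Without R. intestinalis replicates 2 and 4 their r was -0.50 and -0.52 (exact permutation p = 0.31 and 0.285). Sis read 22.2, 11.7 and 580.4 in the core mice and 11.4, 945, 429, 1370.1 and 28.1 with R. intestinalis, highest in the same 3 mice that were lowest in Hoxb13. The summed level of all 9 markers was 1946 to 7115 in core and 2530 to 7328 with R. intestinalis, and 2 of the 9 (Lct among them) were at 0 in some library.

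Of 8 colon epithelium markers, Aqp8 (r = 0.99) and Slc26a3 (0.95) were positively related to Hoxb13 and Car1 (-0.79) negatively (unadjusted). Of all genes, 7.04% were positively and 6.91% negatively related. Without R. intestinalis replicates 2 and 4, r was 0.97, 0.89 and -0.62 (exact permutation p = 0.00556, 0.0194 and 0.217). The summed level of the 8 markers was 148217 to 367084 in core and 200980 to 363449 with R. intestinalis. Car1, a carbonic anhydrase of the colon surface, read 36525, 12235 and 83254 in the core mice and 46258, 109366, 53025, 92121 and 35199 with R. intestinalis, highest in the 3 mice lowest in Hoxb13. None of 6 smooth muscle and 6 fibroblast markers had an unadjusted p under 0.05 for Pearson's r with Hoxb13. By rank the fibroblast marker Lum did (rho = -0.83, exact permutation p = 0.0154, n = 8). The part of these cells and regions in the Hox order was not tested.

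The sequence just before the start of transcription can be compared for genes at both ends of this order. RefSeq (GRCm38.p6) gave a start for 21 of the 36 genes, in 23 windows of 250 bases upstream, and Hoxb8, Hoxd10 and Hoxa13 are shown because their values ran in opposite directions and their windows overlap no annotated exon. The Hoxb8 window lies at chr11:96281655-96281904 on the plus strand, the Hoxd10 window at chr2:74691641-74691890 on the plus strand and the Hoxa13 window at chr6:52260881-52261130 on the minus strand. They are written 5′ to 3′ along the gene, with matches to 3 letter motifs in capitals.
Hoxb8: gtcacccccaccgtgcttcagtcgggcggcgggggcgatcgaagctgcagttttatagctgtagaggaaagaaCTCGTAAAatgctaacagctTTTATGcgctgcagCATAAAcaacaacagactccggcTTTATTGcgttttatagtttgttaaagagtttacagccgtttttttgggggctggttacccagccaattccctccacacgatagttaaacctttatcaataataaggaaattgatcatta
Hoxd10: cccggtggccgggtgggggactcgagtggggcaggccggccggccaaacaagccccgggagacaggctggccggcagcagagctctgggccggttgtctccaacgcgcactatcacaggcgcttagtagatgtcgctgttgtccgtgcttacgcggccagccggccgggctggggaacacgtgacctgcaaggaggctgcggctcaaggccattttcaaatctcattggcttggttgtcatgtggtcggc
Hoxa13: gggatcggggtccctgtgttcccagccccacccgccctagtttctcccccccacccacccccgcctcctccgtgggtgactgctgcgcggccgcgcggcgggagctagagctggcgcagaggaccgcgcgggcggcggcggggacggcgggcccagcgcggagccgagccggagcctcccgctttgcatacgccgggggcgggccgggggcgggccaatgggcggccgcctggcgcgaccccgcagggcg

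Letters close to those that caudal and posterior Hox proteins are known to bind were searched on both strands: TTTATG as the first motif, its longer form TTTATTG as the second, and TTTACGAG as the last. None of them contains another. They were picked after the windows had been read. The Hoxb8 window held 2 matches to the first motif, 1 to the second and 1 to the last, and those of Hoxd10 and Hoxa13 held none. Neither did that of Hoxb4, which ran with Hoxb8, while that of Hoxa7, which ran with Hoxb13, held 2 matches to the first. Of all 32851 windows, 10.8%, 4.2% and 0.11% held them in that order and 14.4% any, against 5 of the 23 Hox windows. GC content was 44.4% in the Hoxb8 window, 65.6% in that of Hoxd10 and 80.0% in that of Hoxa13. Genes without a matched start include Hoxa4, Hoxb2, Hoxb3, Hoxb5, Hoxb6, Hoxb7, Hoxb9 and Hoxb13.

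Whether adding R. intestinalis changed Hox expression was tested with limma on log2(value + 1) over all 13020 genes. After Benjamini-Hochberg adjustment 0 of 21 Hox genes passed 0.05, with limma adjusted p from 0.588 to 0.998, and no gene of the table passed (0.0%). Unadjusted, 2 of 21 were under 0.05 (Hoxb2 and Hoxb9), against 8.13% of all genes, and both were higher with R. intestinalis, as were 4.44% of all genes. The difference was above 0 for 13 of 21, against 49.6% of all genes: 8 of 9 in cluster B (median 1.12, log2), 3 of 9 in cluster A (median -0.11) and 2 of 3 in cluster D. The cluster B genes varied together over mice, so their directions are not independent of each other.

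Hoxb9, the cluster B gene with the highest mean, read 219, 265 and 438 in the core mice and 488, 563, 429.9, 496 and 379.6 with R. intestinalis. Core replicate 3 lay inside the range of the other group, so the groups overlapped. Its means were 307 ± 115 (SD, n = 3) and 471 ± 69.6 (SD, n = 5), a limma log2 difference of 0.67 (SE 0.22, unadjusted p = 0.0123, Benjamini-Hochberg adjusted p = 0.588).

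Hoxb2 read 3.17, 13.8 and 13.8 in the core mice and 18.0, 25.9, 16.5, 22.4 and 19.2 with R. intestinalis. The core values rest on about 2, 13 and 12 estimated reads, and exons of Hoxb2 overlap those of Hoxb3os on the opposite strand. Hoxb2 was the only tested Hox gene whose groups did not overlap, against 5.84% of all genes, and 2.53% of all genes were apart with R. intestinalis higher. Its log2 difference was 1.12 (limma SE 0.44, unadjusted p = 0.0272, Benjamini-Hochberg adjusted p = 0.588). Core replicate 1, at 3.17, was the lowest mouse, and in the test without it no Hox gene had an unadjusted p under 0.05, against 2.07% of all genes. The log2 difference without it was 0.51 for Hoxb2 and 0.45 for Hoxb9. In the tests without R. intestinalis replicate 2 or 4, only Hoxb9 had an unadjusted p under 0.05, against 14.6% and 9.65% of all genes.

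Hoxa10, the cluster A gene with the highest mean, read 508, 500.3 and 460.3 in core and 501, 239, 444, 302 and 397.5 with R. intestinalis. R. intestinalis replicate 1 was within the core range, and the other 4 mice were below it. The limma log2 difference was -0.42 (SE 0.23, unadjusted p = 0.0878, Benjamini-Hochberg adjusted p = 0.591). Hoxb8, Hoxb3 and Hoxb5 had limma log2 differences of 1.46 (SE 0.84), 1.17 (SE 0.70) and 1.12 (SE 0.73), with unadjusted p of 0.113, 0.125 and 0.157. Leaving out single libraries moved them to between 0.78 (without core replicate 2) and 2.43 (without core replicate 3) for Hoxb8. They ran from 0.56 to 1.98 for Hoxb3 and from 0.40 to 1.82 for Hoxb5 (without core replicates 1 and 3).

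The paralog 13 genes had limma log2 differences of -0.17 (SE 0.88) for Hoxa13, -0.72 (SE 1.71) for Hoxb13 and -1.04 (SE 1.15) for Hoxd13, each within 1 SE of 0. Without core replicate 3, in which cluster B genes were high, 7 cluster B genes had an unadjusted limma p under 0.05 (Hoxb2, Hoxb3 and Hoxb5 to Hoxb9) against 7.67% of all genes, and 0 passed after adjustment, with a smallest Hox adjusted p of 0.431. In the authors' deposited table the highest posterior probability of differential expression among the Hox genes was 0.12, for Hoxb9 (raw fold change 1.53). There 0 of 36 reached 0.95, against 0.481% of all genes.

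**Figure D5:**
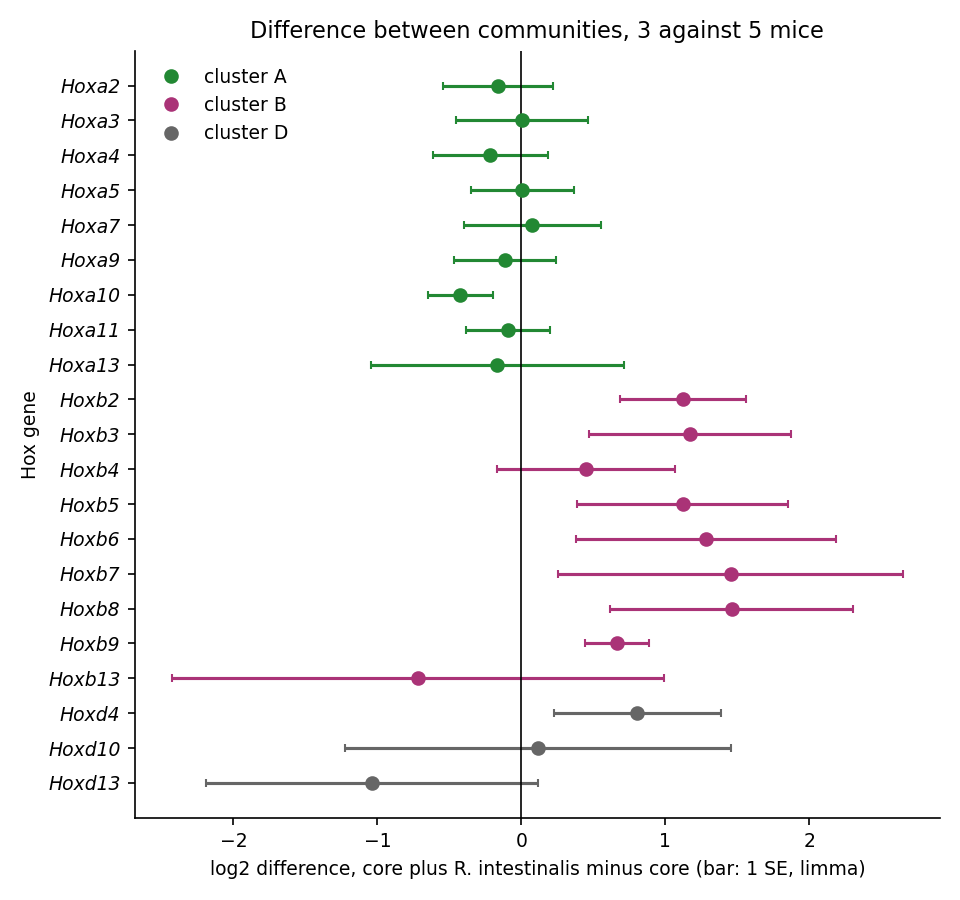
limma log2 difference, core plus R. intestinalis minus core (horizontal axis, bar is 1 SE, 3 against 5 mice), for the 21 tested Hox genes. Cluster B genes other than Hoxb13 lie right of 0, with Hoxb9 at 0.67 and Hoxb2 at 1.12.

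Markers of other cells in the piece were read beside these differences. The summed fibroblast level was 7773 to 8921 in core and 4614 to 6994 with R. intestinalis. The summed smooth muscle level was 127430 to 175440 and 84935 to 149856. The groups overlapped only in the latter sum. Of single markers in these lists, only Col1a2 and Col3a1 (fibroblast) and Acta2 and Tagln (smooth muscle) had groups that did not overlap, against 5.84% of all genes. In other lists Cfd (adipocyte), Pecam1 (endothelium) and Vip (enteric neuron) were also apart, each lower with R. intestinalis. All 6 fibroblast and all 6 smooth muscle markers had a difference below 0, none past the adjusted threshold. Unadjusted, 2 fibroblast and 3 smooth muscle markers had a limma p under 0.05. Of 3 tested adipocyte markers all had a difference below 0 (median -1.92, log2) and all 3 had an unadjusted limma p under 0.05, against 8.13% of all genes. Their summed level, over all 4 listed, was 1122 to 2706 in core and 318 to 1452 with R. intestinalis. All 3 endothelium markers were below 0 (median -0.22), and all 7 tested small intestine markers were above 0 (median 0.81). In each of these 2 lists 1 marker had an unadjusted limma p under 0.05. The part of the other cells in the Hox differences was not tested.

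For the TALE cofactors of Hox proteins, 4 of 9 were above 0 and 5 below, none past the threshold. Pbx3 had the smallest p, at 282 ± 54.6 (SD, n = 3) and 178 ± 19.4 (SD, n = 5), a limma log2 difference of -0.65 (unadjusted p = 0.00346, Benjamini-Hochberg adjusted p = 0.588).

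Of the other lists of genes that act with or on Hox genes, none had a member past the adjusted threshold. The gut position factors (Cdx1, Cdx2 and others) had 6 of 6 above 0. Cdx2, which drives posterior Hox expression in the hindgut, was at 464 ± 58.6 (SD, n = 3) and 613 ± 233 (SD, n = 5), Cdx1 at 301 and 416, and Hnf4a had the highest mean. In Polycomb repressors 11 of 17 were above 0. Of those named by the rule, the log2 difference was 0.55 for Cbx8, -0.32 for Bmi1 and -0.17 for Rbbp7. In Trithorax activators and H3K27 demethylases 6 of 10 were above 0, with 0.42 for Kmt2a (in the table as Mll1), -0.33 for Psip1 and 0.08 for Ash1l. Of the 31 listed cluster neighbours and noncoding RNAs only 10 had values, none of them a noncoding RNA. Of the 9 tested neighbours 3 were above 0. The named members were below it, at -0.28 for Hibadh, -0.27 for Mtx2 and -0.11 for Atp5g1.

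Retinoic acid genes had 10 of 12 differences above 0 (Rdh10 and Cyp26b1 had the smallest p). Aldh1a1, which makes retinoic acid, read 2401, 1057 and 5064 in core and 2934, 8407, 4290, 7360 and 2159 with R. intestinalis. It was highest in the same 3 libraries that were lowest in Hoxb13 (r = -0.83, exact permutation p = 0.0101, adjusted p = 0.253, rho = -0.88; r without the 2 farthest libraries = -0.59). Of the gene lists, median SD of log2 values was 0.35 for TALE cofactors, 0.53 for gut position factors, 0.29 for Polycomb, 0.26 for Trithorax, 0.23 for neighbours and 0.50 for retinoic acid genes, against 0.96 for the tested Hox genes.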

How the data were processed

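RNA of 8 mice was analysed, 3 core and 5 core plus R. intestinalis, as labelled. Bowtie2, RSEM 1.2.23 and the build mm9 appear in the submitters' processing notes. Per the file headers and values, the deposited table holds a normalized expression signal per gene and library, made by the authors from estimated reads divided by a library factor. The authors also deposited a score per gene (posterior probability that its expression differs) and fold changes as a linear ratio. In each library 79.9% to 84.2% of low values (under 30) were multiples of 1 read's worth within 0.05 of it, and depth was estimated from that worth, with no count test run. A core library that the file name hints at was not analysed here.

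The scale was log2(value + 1), on which changes of low genes are understated. The 13020 genes whose mean reached 10 were tested with limma 3.58.1 in R 4.3.3, with a mean-variance trend and Benjamini-Hochberg adjustment at 0.05. Correlation with Hoxb13 used exact permutation over 40320 pairings, adjusted over all genes tested rather than over the Hox genes as first planned. Tested on simulated data, limma called 8.96% of the genes given a 1.5-fold change (67 genes), 52.2% of those given a 2-fold change (67) and 84.8% of those given a 4-fold change (66), and 3 genes falsely. The changed genes were drawn at random from all genes tested, whose median SD was 0.32, against 0.96 for the tested Hox genes. These rates therefore do not hold for the Hox genes. The spread behind each p-value is that between these mice.

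The Hox genes and the gene lists were chosen with earlier results of these data known. Full values go to tested paralog 12 and 13 members, the 6 largest SD, the 6 smallest p and the highest mean of each cluster. Other lists name the 2 smallest p and the highest mean, and the genes most like Hoxb13 are the 5 with the highest and the 5 with the lowest r (mean of at least 50). A few genes that this rule or the lists take are left out of the text. Exon lengths came from GENCODE vM21 and upstream windows from RefSeq GRCm38.p6. Other pseudocounts, filters, scalings, left-out libraries, blocks, library weights and no trend were tried.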

Additional observations from a re-analysis of the deposited data

How the results depend on the processing

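No Hox gene passed the adjusted threshold for the group difference, nor for correlation with Hoxb13, in any setting run. With 7 and 6 libraries the smallest exact permutation p was 0.000198 and 0.00139. There a gene could pass the correlation threshold only along with many others. With limma library weights, where 455 genes in all were called, the smallest Hox adjusted p (limma, Benjamini-Hochberg) was 0.062, and 1 library (R. intestinalis replicate 3) had a weight of 7.98. Deviations of same-numbered libraries had correlations over genes of -0.12, -0.53 and -0.07 by title number. By sample-name number they were -0.011, -0.41 and -0.49. Neither numbering showed likeness between same-numbered libraries, but so few pairs cannot exclude a shared batch. With the replicate block 0 Hox genes were called, and 395 genes had an unadjusted p under 0.05 (851 with the block by sample-name number, against 1058 without a block). The count of Hox genes whose groups did not overlap was 1, and was 0 among genes with a mean of at least 50. With a library left out it ran from 1 to 4 (4 without core replicate 3, 2 without R. intestinalis replicate 1). The share over all genes was not taken with a library left out, so these counts cannot be set against it. The count with an SD above 1 was 9 of 21, and was 5 of 11 among Hox genes with a mean of at least 50. It ran from 9 to 11 with a library left out. This count and its settings were chosen after seeing the data. The share of all genes was not taken at that higher mean. These log2 differences changed sign. Hoxd10 was -0.049 with a pseudocount of 0.5. With quantile normalization both Hoxa3 and Hoxa5 were at -0.068. With the replicate block Hoxa3 was -0.065, Hoxa5 -0.18, Hoxa7 -0.029, Hoxa9 0.020, Hoxa11 0.083 and Hoxd10 -0.077. With the block by sample-name number Hoxa13 was 0.43 and Hoxb13 0.19. With library weights Hoxa3 was -0.052, Hoxa9 0.0041, Hoxa13 0.54, Hoxb13 1.13 and Hoxd13 0.64. With a library left out, log2 differences ran from -0.40 to 0.0495 for Hoxa2, -0.28 to 0.25 for Hoxa3, -0.65 to 0.0497 for Hoxa4, -0.17 to 0.26 for Hoxa5, -0.17 to 0.41 for Hoxa7, -0.35 to 0.090 for Hoxa9, -0.26 to 0.077 for Hoxa11, -0.64 to 0.50 for Hoxa13, -1.80 to 0.41 for Hoxb13 and -0.59 to 1.06 for Hoxd10, and r with Hoxb13 ran from -0.55 to 0.011 for Hoxa11. Without the 2 libraries farthest from its median, r with Hoxb13 was -0.28 for Hoxa10 and 0.30 for Hoxb2. The cause was not tested. Depth limits low genes: Hoxb13 in R. intestinalis replicate 2 rests on about 2 reads.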

Other observations

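Outside the Hox genes, the 5 named genes with a mean of at least 50 that were most like Hoxb13 over the 8 libraries were Thbs4 (r = 0.99), Smad4 (0.99), Aqp8 (0.99), Tgm3 (0.99) and Slc15a1 (0.98). Thbs4 is a matrix protein, Smad4 a TGF-beta signal carrier, Aqp8 a water channel of the colon surface, Tgm3 a transglutaminase and Slc15a1 a peptide transporter. Aqp8 read 1538, 2140 and 344 in the core mice and 1255, 47.4, 1882, 101 and 2866 with R. intestinalis, lowest in the same 3 mice as Hoxb13. The genes with the lowest r were Cd44 (-0.98), Gal (-0.95), Tspan6 (-0.94), Fam162a (-0.94) and Zfp157 (-0.94). Cd44, an adhesion receptor of crypt cells, read 773, 602.5 and 1060 in the core mice and 626, 1296, 605 and 1044 in R. intestinalis replicates 1 to 4, with 584 in replicate 5. These genes were picked by r, so the values describe them.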
